A study of Arabidopsis thaliana with 18 samples.

Results

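The genes described here make the plant hormone jasmonate or answer to it. They were chosen by name, as 10 Arabidopsis loci: LOX2 (AT3G45140), LOX3 (AT1G17420), AOS (AT5G42650), AOC2 (AT3G25770), AOC3 (AT3G25780), OPR3 (AT2G06050), VSP1 (AT5G24780), VSP2 (AT5G24770), JAZ1 (AT1G19180) and CORI3 (AT4G23600). Of these 10, the 7 with a probe set named by their locus were measured, among 21430 such probe sets on each of 18 arrays. AOC2, VSP1 and VSP2 are not analysed here.

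Jasmonate is made from the plastid lipid linolenic acid. Lipoxygenases oxidise it, allene oxide synthase and allene oxide cyclase turn the product into OPDA, and in the peroxisome OPDA is reduced and shortened to jasmonic acid, which is then joined to isoleucine. The conjugate brings the receptor COI1 together with JAZ repressors, which are degraded, and MYC transcription factors are thereby released. Wounding, insect feeding and touch raise jasmonate in seedlings and leaves, and many synthesis and JAZ genes are themselves induced by the hormone.

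The arrays measured RNA of whole Arabidopsis seedlings in which a PLETHORA (PLT) transcription factor, a family known from root and embryo stem cell regions, was expressed from the 35S promoter as a fusion to the glucocorticoid receptor domain (GR). Such a fusion enters the nucleus when dexamethasone (dex) is given. The dex groups were the lines 35S-PLT1-GR, 35S-PLT4-GR, 35S-PLT5-GR and 35S-PLT7-GR with 3 libraries each and 35S-PLT3-GR with 2, all given 10 µM dex for 6 h, and are called PLT1, PLT3, PLT4, PLT5 and PLT7 below. These are the spellings of the sample descriptions, while the titles of the dex libraries leave out the S of 35S. The mock group was 4 libraries of the 35S-PLT4-GR line given the solvent DMSO for 6 h. Seedlings were 4 days old when about 50 were put into each flask of liquid medium, and were treated on the next day. The mock plants thus carry a PLT fusion too, driven in most tissues by a strong viral promoter. The comparison of PLT4 with mock stays within 1 line, but dex and the entry of the fusion into the nucleus differ together there. No group received dex without a fusion, so in PLT4 too an effect of the drug cannot be told apart from that of the fusion. In the comparisons of the other 4 lines with mock, the fusion and the line differ together with the drug. There the drug, the fusion and the line cannot be told apart. Libraries of 1 group are biological replicates per the labels. How many independent transgenic lines stood behind each fusion was not given in the sources used here. The labels' protocol prepares 3 extra flasks for mock, while 4 mock libraries are listed. Whole seedlings were extracted, so fewer cells of a type and less RNA per cell cannot be told apart.

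The library labelled PLT1 replicate 3 went against its label. Its PLT1 value was 3.50 on the log2 scale, against 11.08 in the highest PLT1 library, and its PLT2 value was 10.28. It also had the highest actin 3′ minus 5′ difference, 2.67, against 1.08 to 1.64 in the other 17 arrays. The same difference for ubiquitin was 1.79, against 1.19 to 1.44. For GAPDH it was 1.28, within the 1.13 to 1.53 of the other arrays. The mean correlation of this library with its own group was 0.968. In the other 13 dex libraries the transcript of the line's own fusion was at 10.67 or above, and the mock libraries had PLT4 at 11.41 to 11.58. The doubted library was kept under its label, and the 7 genes and the gene lists are also given without it where a call or a count moved. A PLT5 library (replicate 3) had a PLT2 value of 6.07 and a PLT7 library (replicate 1) had a PLT3 value of 6.49. The defining markers of leaf tissue GAPB, RCA and PSAD1 averaged 11.42 or more in every group, and the flower genes AP3, PI and AG averaged 3.66 or less in every group. The root markers CASP1 and PRP3 averaged 7.93 and 6.66 in mock, while the root markers NRT2.1 and TIP2;3 averaged 4.74 and 4.83.

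All values are log2 probe set values. A gene is called higher or lower where limma's moderated test, adjusted by Benjamini-Hochberg over 21430 probe sets, gave p under 0.05. In the mean of the 5 lines minus mock, 4 of 7 genes were called lower and 0 higher. Of all probe sets, 22.5% were called lower and 23% higher in that comparison. The genes were LOX2, AOS, JAZ1 and CORI3. Without PLT1 replicate 3, OPR3 joined them, and 5 of 7 were lower against 24.2% of all probe sets. The median difference of the 7 genes was -0.459, against 0.004 over all probe sets.

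Counted line by line, 5 of 7 were lower in PLT7, where 20.6% of all probe sets were lower. In PLT1, 3 of 7 were lower, where 22.9% were lower. In PLT3, 1 of 7 was lower and 1 higher, where 12.6% were lower and 12.9% higher. In PLT4, 1 of 7 was lower, where 16.2% were lower. In PLT5, 1 of 7 was lower, where 11.6% were lower. A count of 1 in 7 is 14.3%, which is near the background in PLT3, PLT4 and PLT5. Without PLT1 replicate 3, the counts lower were 5 in PLT7, 4 in PLT1, 3 in PLT3, 2 in PLT4 and 2 in PLT5, where 22.4%, 23%, 15.7%, 19% and 15.1% of all probe sets were lower. PLT1 then also had 1 gene higher, AOC3, where 27.8% of all probe sets were higher, and PLT3 had CORI3, where 15.9% were.

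**Figure D1:**
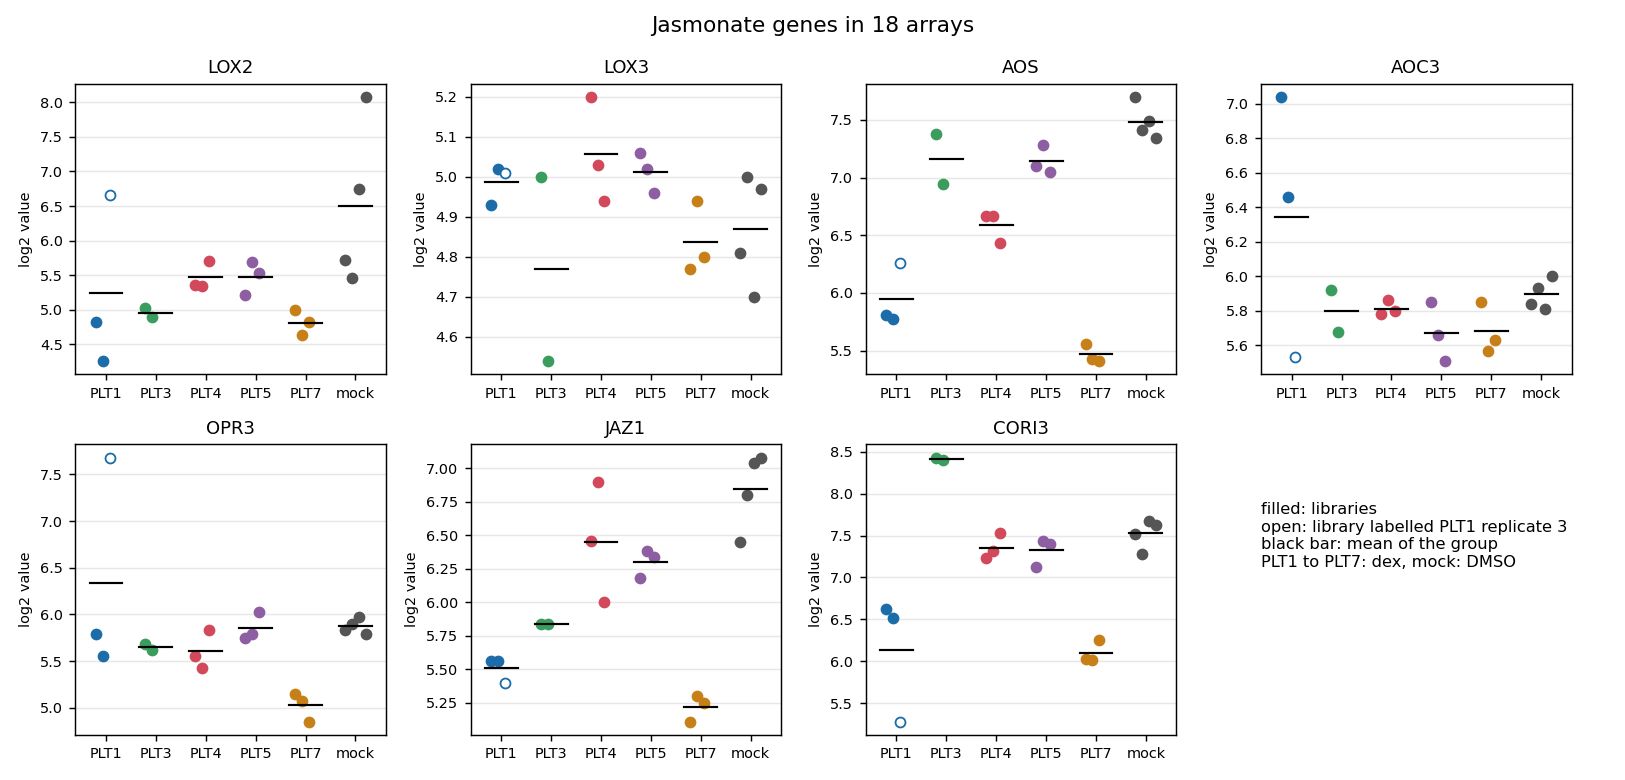
Log2 value of each of the 7 measured genes (vertical axis) in the 5 dex-treated lines and mock (horizontal axis). Each point is a library, the black bar is the group mean, and the open point is the library labelled PLT1 replicate 3. AOS and JAZ1 sit lowest in PLT7 and PLT1, CORI3 sits highest in PLT3, and the 4 mock libraries of LOX2 spread over 5.46 to 8.08.

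LOX2 encodes a plastid lipoxygenase that supplies much of the jasmonate of wounded leaves. Its values were 4.82, 4.26 and 6.66 in PLT1, 5.02 and 4.90 in PLT3, 5.36, 5.35 and 5.71 in PLT4, 5.21, 5.69 and 5.53 in PLT5 and 4.99, 4.63 and 4.82 in PLT7, against 5.72, 5.46, 6.74 and 8.08 in mock. All PLT3 and PLT7 libraries lay below all mock libraries, while PLT4 and PLT5 overlapped with the low end of mock. PLT1 replicate 3 lay above the other PLT1 libraries. The mean of the 5 lines minus mock was -1.31 ± 0.39 (SE, adjusted p = 0.0121). Without mock replicate 4, the highest library, the difference was -0.78 (adjusted p = 0.0867). In PLT7 alone LOX2 was lower by a difference of -1.68 ± 0.53 (adjusted p = 0.0161), a 3.21-fold lower value, and the call was lost without PLT7 replicate 2 (-1.59, adjusted p = 0.0555). In PLT1 the difference was -1.25 ± 0.53 (adjusted p = 0.0623), and without PLT1 replicate 3 it was -1.96 ± 0.46 (adjusted p = 0.00148). It also passed without mock replicate 1 (-1.51, adjusted p = 0.0368) or 2 (-1.60, adjusted p = 0.0219), the lowest mock libraries. In the other fits that left out 1 library the PLT1 difference did not pass (adjusted p up to 0.299). In PLT3 it was -1.54 ± 0.60 (adjusted p = 0.0741), and without PLT1 replicate 3 the same difference passed (adjusted p = 0.0147). It also passed without mock replicate 1 (-1.80, adjusted p = 0.0485) or 2 (-1.89, adjusted p = 0.0308), the same low mock libraries. Without mock replicate 3 or 4 the PLT3 difference did not pass. PLT4 and PLT5 had differences of -1.03 and -1.02 that did not pass.

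LOX3, another lipoxygenase of the same step, known for its part in male fertility together with a relative, did not differ by these tests. Its 14 dex libraries lay between 4.54 and 5.20, and its 4 mock libraries between 4.70 and 5.00. The differences from mock ran between -0.10 in PLT3 and 0.19 in PLT4, with SEs of 0.10 to 0.12, and none passed the test with or without PLT1 replicate 3.

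AOS encodes allene oxide synthase, the cytochrome P450 enzyme of the committed step. It had 5.81, 5.77 and 6.26 in PLT1, 7.38 and 6.94 in PLT3, 6.67, 6.67 and 6.43 in PLT4, 7.10, 7.28 and 7.05 in PLT5 and 5.56, 5.43 and 5.41 in PLT7, against 7.70, 7.41, 7.49 and 7.34 in mock. In all, 13 of 14 dex libraries lay below every mock library, the exception being a PLT3 library at 7.38. The mean of the 5 lines minus mock was -1.03 ± 0.10 (adjusted p = 2.64e-07). The largest difference of AOS was that of PLT7, -2.02 ± 0.13 (adjusted p = 7.81e-09), which is 4.06-fold lower. PLT1 followed with -1.54 ± 0.13 (adjusted p = 8.11e-08), and -1.70 ± 0.12 without replicate 3. In PLT4, against mock of its own line, AOS fell by 0.89 on the log2 scale (SE 0.13, adjusted p = 5.19e-05). In PLT5 the difference was -0.34 ± 0.13 (adjusted p = 0.0698), and in PLT3 it was -0.33 ± 0.15 (adjusted p = 0.123). Both passed without PLT1 replicate 3, at adjusted p = 0.0215 in PLT5 and 0.0485 in PLT3, with the same differences and smaller errors. Without PLT3 replicate 1 the PLT3 difference was -0.55, which rests on PLT3 replicate 2 alone (6.94). PLT3 replicate 1, at 7.38, lay within the range of the mock libraries.

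AOC3 encodes an allene oxide cyclase, which makes OPDA from the product of AOS. It had 7.04, 6.46 and 5.53 in PLT1, 5.92 and 5.68 in PLT3, 5.78, 5.86 and 5.80 in PLT4, 5.85, 5.66 and 5.51 in PLT5 and 5.85, 5.57 and 5.63 in PLT7, against 5.84, 5.93, 5.81 and 6.00 in mock. PLT1 replicates 1 and 2 lay above every other library, and replicate 3 of the same label lay below every mock library. The PLT1 difference was 0.45 ± 0.22 (adjusted p = 0.113) with all libraries, and 0.85 ± 0.13 (adjusted p = 3.47e-05) without replicate 3. No other line passed.

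OPR3 encodes the peroxisomal reductase of OPDA, without which flowers are male sterile. It had 5.79, 5.55 and 7.68 in PLT1, 5.68 and 5.62 in PLT3, 5.55, 5.43 and 5.83 in PLT4, 5.75, 5.79 and 6.02 in PLT5 and 5.15, 5.07 and 4.85 in PLT7, against 5.83, 5.90, 5.97 and 5.79 in mock. PLT1 replicate 3 held the highest value of all 18 arrays. The 3 PLT7 libraries were the lowest of all. In PLT7 OPR3 fell, with a difference of -0.85 ± 0.33 (adjusted p = 0.048), and without PLT1 replicate 3 the same difference had an SE of 0.10 and an adjusted p of 1.96e-06. The call with all libraries lay near the threshold and was lost in 15 of the 17 other fits that left out 1 library (adjusted p up to 0.14, without PLT7 replicate 3). The PLT1 difference was 0.46 ± 0.33 (adjusted p = 0.271) with all libraries and -0.21 ± 0.12 (adjusted p = 0.156) without replicate 3, so its sign rests on that library. Without PLT1 replicate 2 it was 0.86 (adjusted p = 0.039). Averaged over the 5 lines, OPR3 differed by -0.18 (adjusted p = 0.606), and without PLT1 replicate 3 by -0.31 (adjusted p = 0.00228). PLT4 had -0.27 ± 0.33 (adjusted p = 0.599), which passed without PLT1 replicate 3 (SE 0.10, adjusted p = 0.0455).

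JAZ1 encodes a repressor of MYC factors, a direct target of COI1, whose transcript rises when jasmonate acts. It had 5.56, 5.56 and 5.40 in PLT1, 5.84 and 5.84 in PLT3, 6.46, 6.90 and 6.00 in PLT4, 6.18, 6.38 and 6.34 in PLT5 and 5.11, 5.30 and 5.25 in PLT7, against 6.45, 6.80, 7.04 and 7.08 in mock. In all, 12 of 14 dex libraries lay below every mock library, and the other 2 were PLT4 libraries. The mean of the 5 lines minus mock was -0.98 ± 0.13 (adjusted p = 7.16e-06). JAZ1 fell in PLT7 by a difference of -1.62 ± 0.17 (adjusted p = 9.65e-07), in PLT1 by -1.34 ± 0.17 (adjusted p = 5.92e-06, and -1.28 without replicate 3), in PLT3 by -1.0 ± 0.19 (adjusted p = 0.00103) and in PLT5 by -0.54 ± 0.17 (adjusted p = 0.0284). In PLT4 the difference was -0.39 ± 0.17 (adjusted p = 0.0912). The PLT5 call was lost without mock replicate 3 (adjusted p = 0.0735) or 4 (0.0799), and without PLT5 replicate 1 (0.117), 2 (0.0528) or 3 (0.0662). The PLT4 value passed without PLT4 replicate 2 (-0.61, adjusted p = 0.00769) and without mock replicate 1 (-0.52, adjusted p = 0.022). In the other fits that left out 1 library it did not pass (adjusted p up to 0.517).

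CORI3 encodes an enzyme of the aminotransferase family that splits cystine and is induced by jasmonate and by coronatine, a bacterial mimic of the hormone. It had 6.62, 6.52 and 5.28 in PLT1, 8.43 and 8.40 in PLT3, 7.23, 7.31 and 7.53 in PLT4, 7.13, 7.44 and 7.40 in PLT5 and 6.03, 6.01 and 6.26 in PLT7, against 7.52, 7.28, 7.67 and 7.63 in mock. The PLT3 libraries lay above all others, and those of PLT1 and PLT7 below all others. In PLT7 CORI3 fell, with a difference of -1.43 ± 0.23 (adjusted p = 7.79e-05), and in PLT1 with -1.39 ± 0.23 (adjusted p = 8.51e-05). Without replicate 3 the PLT1 difference was -0.96 ± 0.12 (adjusted p = 2.6e-06). In PLT3 CORI3 rose, with a difference of 0.89 ± 0.26 (adjusted p = 0.0177), a 1.85-fold higher value, and without PLT1 replicate 3 the SE was 0.12 (adjusted p = 2e-05). With either PLT3 library left out, CORI3 was not called in PLT3 (0.87, adjusted p = 0.11 without replicate 1, and 0.90, adjusted p = 0.0965 without replicate 2). Averaged over the 5 lines, CORI3 differed by -0.46 ± 0.17 (adjusted p = 0.0359), over lines that moved in opposite directions. That call was lost without mock replicate 1, 3 or 4, either PLT3 library, PLT4 replicate 1, PLT5 replicate 1 or PLT7 replicate 2 (adjusted p between 0.0505 and 0.106).

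**Figure D2:**
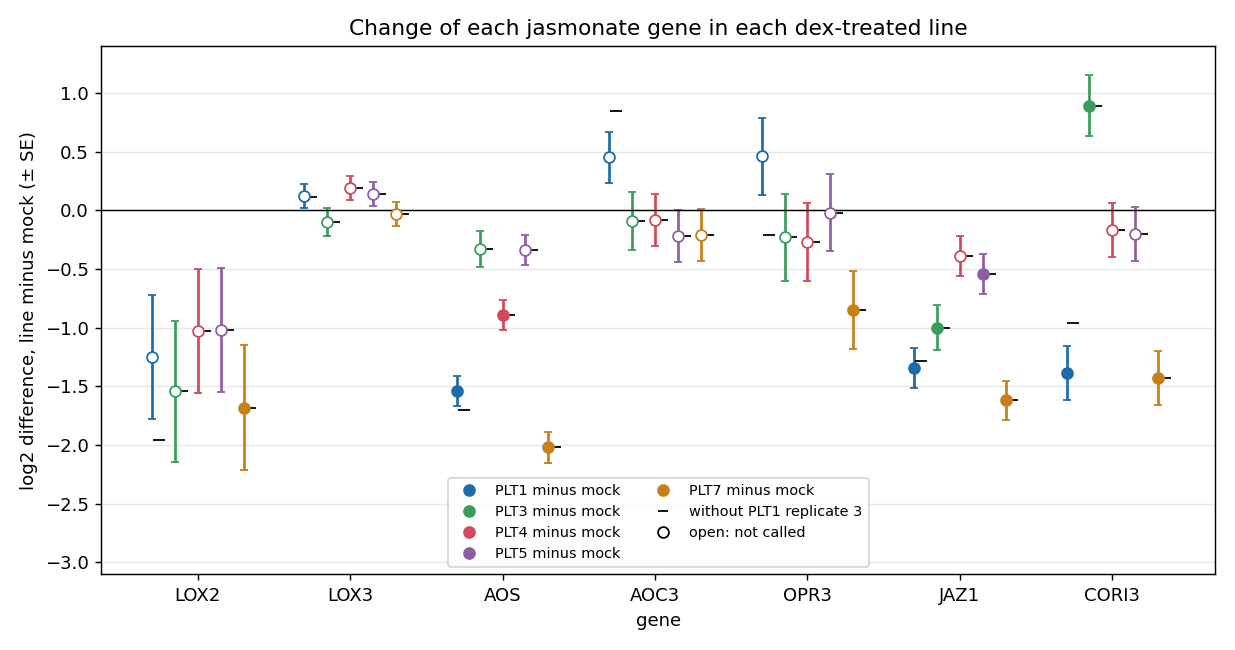
Log2 difference of each dex-treated line from mock (vertical axis, ± SE of the limma fit) for the 7 genes (horizontal axis). Filled points were called and open points were not, and the black dash gives the same difference without PLT1 replicate 3. AOS reaches -2.02 in PLT7, CORI3 is 0.89 in PLT3, and the dashes of LOX2, AOC3, OPR3 and CORI3 in PLT1 stand away from their points.

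The 5 lines were also compared with one another, which leaves out mock. An F test among the lines passed for 3 of 7 genes, AOS (adjusted p = 8.62e-07), CORI3 (3.2e-05) and JAZ1 (0.000285), where 27.1% of all probe sets passed. Without PLT1 replicate 3, 5 of 7 passed, with AOC3 (5.43e-05) and OPR3 (0.000121) added, where 36.7% passed. Over the 10 pairs of lines, 18 of 70 comparisons were called, against 10.6% of all, and 30 of 70 without that library, against 16.9%. The pairs reuse the same 5 group means, so the 70 comparisons are not independent of one another or of the F test. With all libraries, the pairs among PLT3, PLT4 and PLT5 had 0 calls each, so every call involved PLT1 or PLT7.

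In ascending order, AOS averaged 5.47 in PLT7, 5.94 in PLT1, 6.59 in PLT4, 7.14 in PLT5, 7.16 in PLT3 and 7.49 in mock. PLT7 and PLT1 were each below PLT3, PLT4 and PLT5 by these tests, with and without PLT1 replicate 3. With only the 2 groups of a pair in the fit, PLT1 minus PLT3 (adjusted p = 0.0701) and PLT1 minus PLT4 (0.0738) did not pass. PLT1 minus PLT7 was 0.48 ± 0.14 (adjusted p = 0.044), which did not pass without PLT1 replicate 3 (0.32, adjusted p = 0.104). It was also lost without mock replicate 2 or 3, PLT4 replicate 1 or 2, or any 1 PLT5 or PLT7 library (adjusted p between 0.0516 and 0.142), with array weights (0.097), with a replicate block (0.055) and with PLT1 and PLT7 fitted alone (0.186). PLT1 minus PLT4 was -0.65 ± 0.14 (adjusted p = 0.00441). PLT4 minus PLT5 was -0.55 ± 0.14 (adjusted p = 0.0518), and passed without PLT1 replicate 3 (adjusted p = 0.00723). PLT3 and PLT5 were 0.02 apart (SE 0.16).

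JAZ1 averaged 5.22 in PLT7, 5.51 in PLT1, 5.84 in PLT3, 6.30 in PLT5, 6.46 in PLT4 and 6.84 in mock. No neighbours among the lines passed the test, but PLT1 was below PLT5 (-0.79 ± 0.18, adjusted p = 0.00403) and below PLT4 (-0.95 ± 0.18, adjusted p = 0.00178). With only PLT1 and PLT4 in the fit their difference did not pass (adjusted p = 0.065). PLT4 was above PLT7 by a difference of 1.23 ± 0.18 (adjusted p = 0.00027).

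CORI3 averaged 6.10 in PLT7, 6.14 in PLT1, 7.32 in PLT5, 7.36 in PLT4, 7.53 in mock and 8.41 in PLT3. PLT7 and PLT1 were each below PLT3, PLT4 and PLT5. With only the 2 groups of a pair in the fit, PLT1 did not pass against PLT3 (adjusted p = 0.0778), PLT4 (0.114) or PLT5 (0.0737). PLT3 minus PLT7 was 2.31 ± 0.27 (adjusted p = 5.91e-05). PLT3 minus PLT4 was 1.05 ± 0.27 (adjusted p = 0.0932) and PLT3 minus PLT5 was 1.09 ± 0.27 (adjusted p = 0.123). Both passed without PLT1 replicate 3 (adjusted p = 0.000145 and 0.00013). PLT1 minus PLT7 was 0.04 ± 0.24, and 0.47 ± 0.13 without that library (adjusted p = 0.0167).

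Across the 18 arrays the genes followed one another to different degrees. AOS correlated with JAZ1 at Pearson r = 0.81 and with CORI3 at r = 0.75, while the median over the 21 pairs of genes was 0.13. OPR3 had r = 0.32 with AOS over 18 arrays and 0.78 over the 17 without PLT1 replicate 3. These arrays share groups, so the values describe the pattern and carry no test.

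The probe sets nearest to each gene over the 18 arrays were, by Pearson r, DR4 (0.903), ROPGEF4 (0.885) and PEPKR2 (0.867) for LOX2. For LOX3 they were ZIGA4 (0.752), GDPD2 (0.727) and CUC3 (0.712). AT2G42990 (0.966), AT4G32460 (0.965) and EFE (0.964), the last an ethylene-forming enzyme, stood nearest to AOS. For AOC3 they were DHNAT2 (0.940), TRM9 (0.905) and BASL (0.893). IGMT4 (0.935), TRX2 (0.921) and UGT78D1 (0.916) were nearest to OPR3, and over 17 arrays these stood at 0.786, 0.748 and 0.688. AT3G04010 (0.959), CYP81H1 (0.944) and IGMT1 (0.943) were nearest to JAZ1, and AT3G20370 (0.946), SYP23 (0.919) and AT3G07000 (0.907) to CORI3. Of the 7 genes, LOX3 had the lowest r to its nearest probe set.

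Beyond the 7 genes, 58 of 65 measured genes on lists of the jasmonate pathway are not among them. In the mean of the 5 lines 19 of these 58 were lower, which is 32.8%, and 4 were higher, which is 6.9%. In that comparison 22.5% of all probe sets were lower and 23% higher. Without PLT1 replicate 3, 20 of the 58 were lower and 7 higher, against 24.2% and 25.9% of all probe sets. The counts lower and higher were 21 and 5 in PLT1, 10 and 3 in PLT3, 14 and 5 in PLT4, 9 and 2 in PLT5 and 16 and 5 in PLT7. Leaving out PLT1 replicate 3, they were 18 and 7 in PLT1, 16 and 4 in PLT3, 16 and 5 in PLT4, 14 and 3 in PLT5 and 20 and 6 in PLT7. Of all probe sets, 22.9%, 12.6%, 16.2%, 11.6% and 20.6% were lower in PLT1, PLT3, PLT4, PLT5 and PLT7 with all libraries, and 25.4%, 12.9%, 17.5%, 11.3% and 22.7% were higher. Without PLT1 replicate 3, 23%, 15.7%, 19%, 15.1% and 22.4% were lower in the same order, and 27.8% in PLT1 and 15.9% in PLT3 were higher. The share higher in PLT4, PLT5 and PLT7 without that library is not given here, so those counts higher stand without a background. Some of the 58 genes had low values. A mean value under 4.5 was held by 4 of 14 synthesis, 5 of 9 turnover and 6 of 15 repressor genes. The same held for 5 of 10 receptor and transcription factor genes and 8 of 10 response genes.

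Among the 14 other measured synthesis genes 5 were lower and 1 higher in the mean of the 5 lines, against 22.5% and 23% of all probe sets. ACX5, a peroxisomal acyl-CoA oxidase of the chain-shortening steps, fell in all 5 lines, with a mean difference of -0.61 ± 0.06 (adjusted p = 7.46e-07), and all 14 dex libraries lay below mock. LOX6, a lipoxygenase, had -0.30 (adjusted p = 0.00331), and was lower in PLT1 and PLT7. AOC4, an allene oxide cyclase, had -0.26 (adjusted p = 0.0125), and of the single lines it was called in PLT1 alone, with -1.19 (adjusted p = 1.56e-07). In that line AOC3 had 0.45.

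Of the 9 genes of hormone turnover, 3 were lower and 0 higher, against 22.5% and 23% of all probe sets. Without PLT1 replicate 3, 4 were lower, against 24.2%. ILL6, an amidohydrolase that splits the jasmonate conjugate, fell in all 5 lines, with a mean difference of -1.03 ± 0.09 (adjusted p = 1.19e-07), all 14 dex libraries lying below mock. AT5G05600 had -0.59 ± 0.13 (adjusted p = 0.00161). CYP94B1, a cytochrome P450 that oxidises the conjugate, had -0.51 ± 0.12 (adjusted p = 0.00178). Its group means were low, 4.67 in mock and 4.05 to 4.42 in the lines.

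Of the 15 other repressor genes 5 were lower and 1 higher, against 22.5% and 23% of all probe sets. Without PLT1 replicate 3, 3 were higher, against 25.9%. JAZ6 fell in all 5 lines, with a mean difference of -1.28 ± 0.18 (adjusted p = 1.75e-05) and -1.99 in PLT1. JAM1, a bHLH factor that counters MYC factors, had -0.65 ± 0.10 (adjusted p = 6.37e-05) and was lower in all 5 lines. Its group means were 5.00 in mock and 4.20 to 4.46 in the lines. NINJA, an adaptor between JAZ proteins and a corepressor, rose in all 5 lines, with a mean difference of 0.54 ± 0.06 (adjusted p = 1.8e-06).

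Of the 10 receptor and transcription factor genes 4 were lower and 2 higher, against 22.5% and 23% of all probe sets. MYC4 rose in all 5 lines, with 0.76 ± 0.11 (adjusted p = 3.71e-05). ORA59, an ERF factor of the jasmonate and ethylene branch, fell in all 5, with -0.59 ± 0.10 (adjusted p = 7.6e-05). Its group means were low, 4.59 in mock and 3.82 to 4.19 in the lines. COI1 had -0.28 ± 0.06 (adjusted p = 0.0013), called in PLT1, PLT5 and PLT7. MYC2, chosen after its values were seen as the best known of the MYC factors, had -0.43 ± 0.11 (adjusted p = 0.00452). By line, MYC2 was called lower in PLT1 (-0.47, adjusted p = 0.0174) and PLT4 (-0.57, adjusted p = 0.00787). With PLT1 replicate 3 left out it was called in PLT3, PLT4, PLT5 and PLT7 and not in PLT1 (adjusted p = 0.113).

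Of the 10 other response genes 2 were lower, which is near the 22.5% of all probe sets, and 0 were higher, against 23%. Without PLT1 replicate 3, 1 was higher, against 25.9%. A mean value under 4.5 was held by 8 of the 10. JR1, a jasmonate-inducible lectin-like gene, fell in all 5 lines, with a mean of -1.25 ± 0.09 (adjusted p = 2.18e-08), ranging between -2.22 in PLT1 and -0.59 in PLT5. CLH1, a chlorophyllase gene, fell in all 5, with -0.83 ± 0.09 (adjusted p = 6.65e-07). RAP2.6 and THI2.1, a thionin, had -0.24 (adjusted p = 0.0617) and -0.17 (adjusted p = 0.104) and did not pass.

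**Figure D3:**
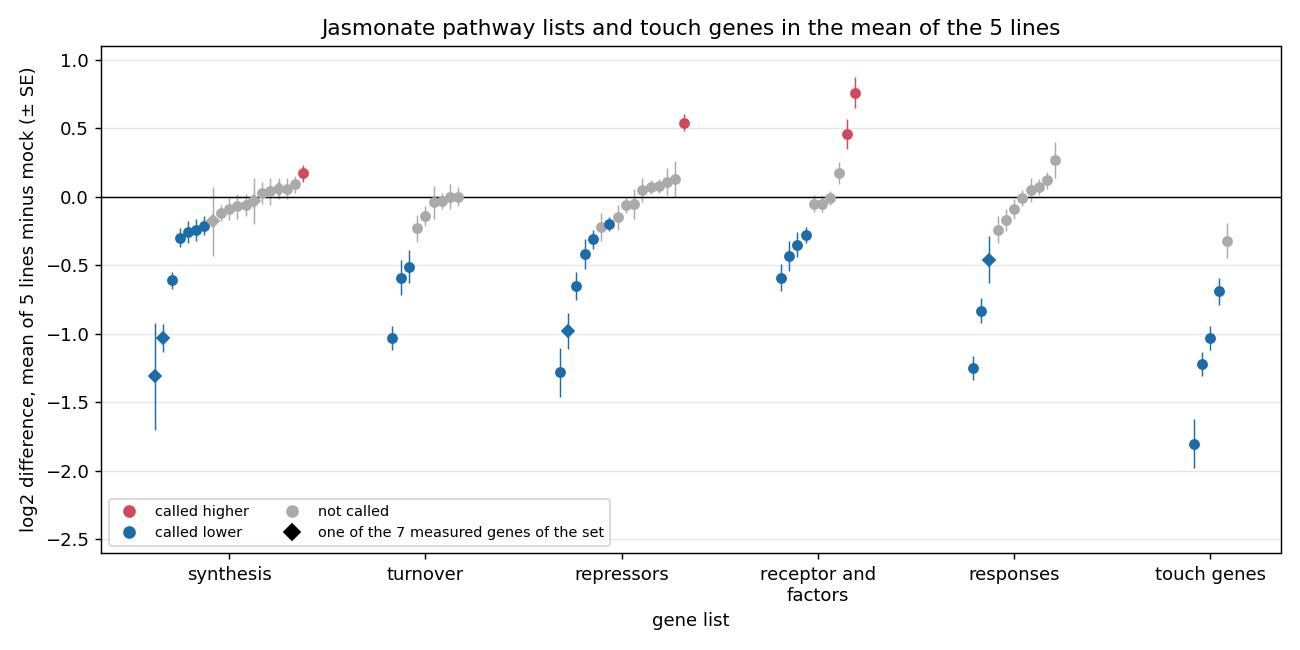
Log2 difference of the mean of the 5 dex-treated lines from mock (vertical axis, ± SE) for the measured genes of 5 jasmonate pathway lists and of a touch list (horizontal axis), each point a gene. Blue points were called lower, red higher and grey neither, and diamonds are the 7 genes of the set. Most called pathway genes lie below 0, with MYC4 at 0.76 and NINJA at 0.54 among the exceptions, and TCH4 lies at -1.80.

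Touch genes moved beside these results. The list holds TCH2, TCH3, TCH4, WRKY40 and ZAT10, which respond to handling and wounding and partly to jasmonate. In the mean of the 5 lines 4 of 5 were lower, against 22.5% of all probe sets, and 5 of 5 without PLT1 replicate 3, against 24.2%. TCH4, a cell wall xyloglucan enzyme, had -1.80 ± 0.18 (adjusted p = 3.99e-07), TCH3, a calmodulin-like protein, -1.22 ± 0.09 (adjusted p = 3.06e-08) and TCH2 -1.03 ± 0.09 (adjusted p = 1.69e-07). By line, TCH4 differed most from mock in PLT7 (-2.96) and least in PLT5 (-0.98), with -2.07 in PLT1, -1.72 in PLT3 and -1.29 in PLT4. The other touch genes had other orders: TCH3 differed most in PLT1 (-1.78) and PLT7 (-1.70), TCH2 most in PLT7 (-1.57) and by -0.84 to -0.94 in the other 4 lines, and WRKY40 most in PLT3 (-0.87). The group means of WRKY40 were low, 4.33 in mock and 3.46 to 3.82 in the lines. ZAT10 was lower in PLT3 (-0.77, adjusted p = 0.00742) and PLT7 (-0.46, adjusted p = 0.0393), and had 0.25 (adjusted p = 0.311) in PLT4. The part of handling in the jasmonate genes was not tested.

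Clock genes moved too. CCA1, a morning clock factor, had -1.72 ± 0.26 (adjusted p = 3.93e-05), and the evening genes PRR5 and TOC1 had 1.13 ± 0.25 (adjusted p = 0.00112) and 0.45 ± 0.10 (adjusted p = 0.00161). Averaged over the 5 lines, 2 of 7 measured clock genes were higher and 1 lower, against 23% and 22.5% of all probe sets. Without PLT1 replicate 3, 3 were higher and 2 lower, against 25.9% and 24.2%. PLT7 had the most of the 7 set genes lower. Among the other 58 pathway genes PLT1 had more lower than PLT7, 21 against 16, and without PLT1 replicate 3 fewer, 18 against 20. In PLT7 all 7 clock genes were called, where 22.7% of all probe sets were higher and 20.6% lower. These were 5 higher and 2 lower, among them CCA1 (-2.56 ± 0.35) and PRR5 (2.14 ± 0.33). The counts of clock genes higher and lower were 2 and 1 in PLT1, 0 and 1 in PLT3, 3 and 1 in PLT4 and 0 and 1 in PLT5. The shares of all probe sets higher and lower were 25.4% and 22.9% in PLT1 and 12.9% and 12.6% in PLT3. In PLT4 they were 17.5% and 16.2%, and in PLT5 11.3% and 11.6%. The mock libraries differed among themselves here: CCA1 was 7.37, 7.62, 7.22 and 5.88 and PRR5 was 5.01, 4.24, 4.5 and 5.74. Mock replicate 4, which held the highest LOX2 value, held the lowest CCA1 and the highest PRR5 value of the group. The part of time of day in the jasmonate results, those of PLT7 and of LOX2 included, was not tested.

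**Figure D4:**
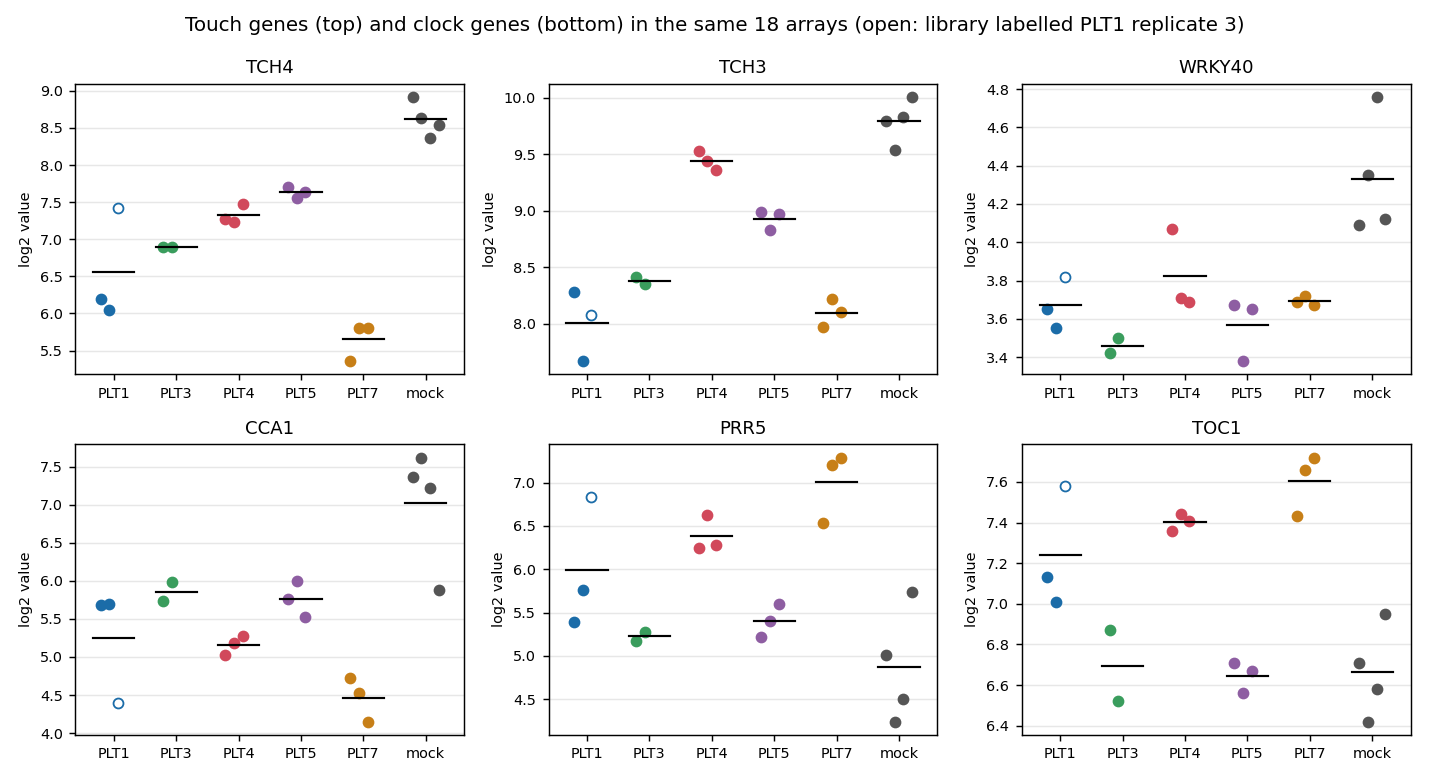
Log2 values (vertical axis) of 3 touch genes (top row) and 3 clock genes (bottom row) in the 5 dex-treated lines and mock (horizontal axis). Points are libraries, bars are group means, and the open point is the library labelled PLT1 replicate 3. TCH4 is lowest in PLT7, and mock replicate 4 stands apart from the other mock libraries in CCA1 at 5.88.

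Tissue markers shifted as well, in the mean of the 5 lines, where 22.5% of all probe sets were lower. Of 3 leaf markers 2 were lower, GAPB by a mean difference of -0.51 ± 0.07 and RCA by -0.30 ± 0.05, while PSAD1 had -0.08 (adjusted p = 0.249). Of 4 root markers 2 were lower, the Casparian strip gene CASP1 with -2.34 ± 0.21 (adjusted p = 1.74e-07) and the root hair wall gene PRP3 with -1.30 ± 0.12 (adjusted p = 1.87e-07). The nitrate transporter gene NRT2.1 had 0.24 ± 0.14 (adjusted p = 0.184), and the aquaporin gene TIP2;3 had -0.42 ± 0.18 (adjusted p = 0.0652), which passed without PLT1 replicate 3 (adjusted p = 0.0379). The means of CASP1 were 4.82 in PLT1, 6.02 in PLT3, 5.75 in PLT4, 6.46 in PLT5 and 4.90 in PLT7, against 7.93 in mock. Their part in the jasmonate results was not tested.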

How the data were processed

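Expression was measured on 18 one-colour arrays of whole seedling RNA. The deposited values are log2 probe set values, used as deposited. The tools named in the submitters' processing notes are RMA and limma 3.24.15, with no role or order, and a genome build was not given in the sources used here. Of 21494 rows, 64 control rows were left out and 21430 tested; 0 per-sample columns were left unused. Gene names came from the TAIR10.1 RefSeq gene table, which held 21231 of the loci. A single limma fit (3.58.1, R 4.3.3) with 1 coefficient per group over all 18 arrays gave each line minus mock, their mean minus mock, an F test among the lines and the 10 pairs, with two-sided moderated tests and Benjamini-Hochberg adjustment over all 21430 probe sets at 0.05. SE values are those of the fit. The number of arrays limits the precision.

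The genes and lists were chosen with earlier results of these data known. Named genes were the measured members, the PLT genes, up to 3 called genes per pathway list with the smallest p in the mean contrast (or up to 2 others where fewer were called), the touch, clock, leaf and root markers, and the 3 probe sets with the highest r to each member. Replicate numbers were not used to pair the samples in the main fit. Of 40 correlations of same-numbered deviations, 3 were over 0.1 (range -0.16 to 0.24). With 2 to 4 arrays per group, these cannot exclude that same-numbered libraries were handled together. Alternatives left out each library, or 3 doubted ones, or changed scaling, weights, variance, filter, block or samples. Promoter motifs were not searched.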

Additional observations from a re-analysis of the deposited data

Results flagged for a closer look

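For 3 of the 7 genes the values differed among the 5 dex-treated lines by limma's F test, which leaves out mock. Of all probe sets, 27.1% passed the same test. AOS differed with an adjusted p of 8.62e-07, its means running between 5.47 in PLT7 and 7.16 in PLT3. CORI3 differed with an adjusted p of 3.2e-05, and was higher than mock in PLT3 and lower in PLT1 and PLT7. JAZ1 differed with an adjusted p of 0.000285, its means running between 5.22 in PLT7 and 6.46 in PLT4.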

How the results depend on the processing

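Of 1534 gene values compared over the alternatives, 1423 kept their direction and side of the threshold, 66 were no longer called, 25 were newly called and 20 turned sign, all of the last in genes that were not called. With each library left out in turn, the members called were 3 to 5 in PLT1, 1 to 4 in PLT3, 1 to 2 in PLT4, 0 to 2 in PLT5, 3 to 5 in PLT7, 2 to 5 in the mean of the lines, 3 to 5 in the F test and 16 to 30 over the pairs. The share of all probe sets called moved as well. Without PLT1 replicate 3 it went from 27.1% to 36.7% in the F test and from 10.6% to 16.9% over the pairs. For the other alternatives that share is not given here, so their counts stand without a background. Without PLT1 replicate 3, PLT5 replicate 3 and PLT7 replicate 1 the counts were 5 in PLT1, 2 in PLT4, 0 in PLT5, 5 in the F test and 28 over the pairs. With array weights they were 5 in PLT1, 2 in PLT5, 5 in the F test and 30 over the pairs, and with the compared groups alone 2 in PLT5. Leaving out dim probe sets (mean under 5.76) removed LOX2, LOX3 and OPR3, so PLT7 had 3. With the replicate number as a replicate block, the counts were 1 in PLT3, 0 in PLT5 and 2 in the mean of the lines, where LOX2 had -0.73 and CORI3 -0.43. Only mock holds a replicate 4, so this block leaves mock replicate 4 out of the line differences. It is therefore not separate from the fit without that library, where LOX2 had -0.78 and CORI3 -0.42 in the mean. The compared groups alone give no separate value for the mean of the lines. OPR3 in PLT7 was not called with median centring (-0.80), quantile normalisation (-0.80), variance trend (-0.85) or the replicate block (-0.88). The sign turned for LOX3 in PLT3 without PLT3 replicate 2 (0.13, single libraries left out giving -0.33 to 0.13). For LOX3 in PLT7 it turned without mock replicate 2 (0.0095) or 4 (0.0019) (range -0.09 to 0.0095), with quantile normalisation (0.032), median centring (0.020) or the replicate block (0.0019). For AOC3 it turned in PLT3 without PLT3 replicate 2 (0.025), and in the mean without mock replicate 4 (0.0034) or PLT1 replicate 3 (0.049) (range -0.10 to 0.049), without 3 libraries (0.048), with array weights (0.020) or median centring (0.0015). For OPR3 in PLT1 it turned without PLT1 replicate 3 (-0.21) (range -0.21 to 0.86), without 3 libraries (-0.21) or with array weights (-0.07), and in PLT5 without mock replicate 3 (0.012), PLT5 replicate 1 (0.031) or 2 (0.010) (range -0.10 to 0.031), or with quantile normalisation (0.0021) or median centring (0.010). The causes were not tested.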
